A study of Mus musculus with 18 samples.

Results

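The comparison set tibialis anterior muscle of ligated hindlimbs from mice named as Bmal1 knockouts (BKO) against ligated limbs of mice named as wild type (WT), across every gene that could be measured. BMAL1, encoded by Arntl, is one subunit of the transcription factor that drives the circadian clock. The members were the 4 BKO and 4 WT ligated libraries of the 18 RNA-seq libraries of the series. Of the 20922 genes listed, 12262 had a mean of at least 10 normalized counts over the 18 libraries and were tested. All mice carried floxed Bmal1 alleles and came from a cross with a line whose Cre is induced by doxycycline under a skeletal muscle actin (ACTA) promoter, so deletion was directed at muscle fibres and not at the other cells of the muscle. Doxycycline was given by oral gavage on 3 consecutive days, the femoral artery of 1 limb was tied a week after the last dose, and muscle was taken from the ligated limb and from the opposite, intact limb on day 36. The study addressed limb perfusion and muscle regeneration in a mouse model of peripheral artery disease. The genotype labels give Cre +/+ for the mice named WT and -/- for those named BKO, the reverse of what the names imply, so every direction below follows the group names. The ligated libraries carry the numbers 2, 4, 5 and 6 in both genotypes, and values below are listed in that order. Nothing in the labels says that the libraries of a group came from separate animals, so the p-values cover only how far these samples varied, which may be technical.

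The WT ligated libraries held 14089381 to 21130015 reads assigned to genes and the BKO ligated libraries 19335315 to 25629204. The mitochondrial ribosomal RNA mt-Rnr2 took 39.2%, 45.3%, 38.1% and 41.8% of those reads in WT and 43.3%, 51.9%, 55.5% and 40.9% in BKO. BKO libraries 4 and 5 therefore stood apart, and with WT library 4 they were the 3 ligated libraries with over 45% of reads on mt-Rnr2. Along the first principal component of the 8 ligated libraries, which held 31.1% of the variance, the WT libraries lay between -26.6 and -19.9 and the BKO libraries between 14.5 and 32.1. The genotypes did not overlap on it.

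The clock of a cell is a loop of transcription and its repression. BMAL1 pairs with CLOCK or NPAS2, binds E-box sequences and activates its own repressors, the period and cryptochrome genes, together with the REV-ERB receptors, which repress Arntl and Clock in turn through ROR elements. In skeletal muscle the same loop times the expression of genes for fuel use, contraction and protein turnover. All tissue was taken on 1 stated day and no clock time is used here, so a level describes 1 phase of each rhythm.

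Arntl, at chr7:113207465-113314126 on GRCm38, was measured first because it is the targeted gene. Its normalized counts were 17.0, 12.2, 18.3 and 17.3 in the WT libraries and 82.0, 63.8, 69.5 and 64.7 in the BKO libraries. All 4 BKO values were above all 4 WT values, so the gene's total RNA was higher, not lower, in the libraries named knockout. The means were 16.2 ± 2.72 (SD, n = 4) and 69.99 ± 8.35 (SD, n = 4), a difference of 53.8 (exact two-sided permutation test over the 70 splits, p = 0.0286, the smallest these splits can give). The counts rest on 72 reads in the 4 WT libraries and 275 in the 4 BKO libraries. On the log2 scale the change was 2.05 ± 0.19 (SE) in ligated limbs and -0.16 (adjusted p = 0.58) in intact limbs, and the difference between limbs was 2.21 ± 0.25 (adjusted p = 8.7e-05). A count per gene does not separate a transcript with the floxed part from one without it, so it does not show whether the allele was deleted.

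Across all genes, 1084 of the 12262 tested, 8.84%, differed between the genotypes in ligated limbs at an adjusted p under 0.05 in limma, an empirical Bayes linear model. Of these 510 (4.16%) were higher and 574 (4.68%) lower in BKO. The counts of gene lists below are to be read beside these shares. Among the fifth of genes with the highest level, 17.9% were called. A count of 616 was reached without BKO libraries 4 and 5, and 733 to 1257 were reached with each of the 8 libraries left out in turn. Most differences were small. The median log2 change of all tested genes was -0.02, the middle 90% lay between -0.62 and 0.61, and 88.9% of genes were within 1.5-fold. The called genes had a median log2 change of 0.65 where higher and -0.61 where lower. At least 2-fold changes were called for 136 higher genes (1.11% of those tested) and 111 lower genes (0.905%), and at least 4-fold changes for 25 and 9. The 4 values of each genotype did not overlap for 1580 genes (12.9%).

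**Figure D1:**
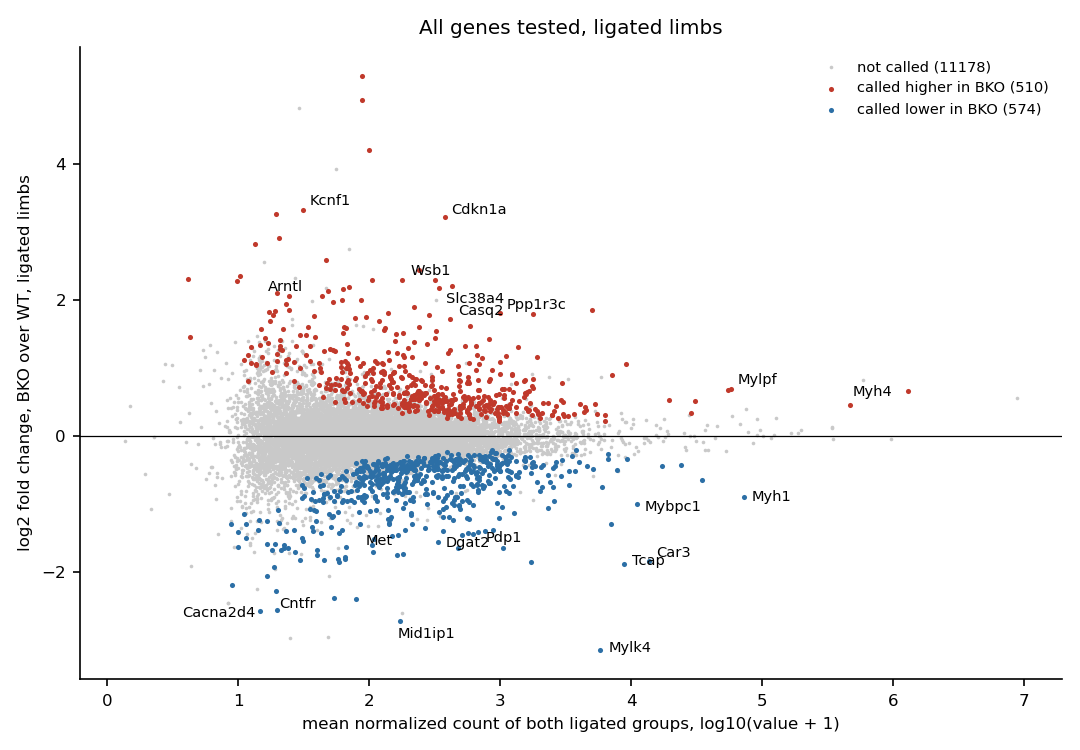
Each point is 1 of the 12262 tested genes, with its mean normalized count in the 8 ligated libraries as log10(value + 1) on the x axis and its log2 change, BKO over WT, on the y axis. Coloured points are the 510 higher and 574 lower called genes, which lie on both sides of a cloud centred near 0.

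The genes that BMAL1 and CLOCK are known to activate were lower. Of 15 tested, 11 fell, and the list's median log2 change was -0.90 against -0.02 for all genes. Without BKO libraries 4 and 5, 9 of the 15 fell. Ciart encodes a repressor that binds BMAL1. Its values were 30.8, 36.6, 69.6 and 44.5 in the WT libraries and 9.99, 11.044, 21.4 and 16.9 in the BKO libraries (log2 change -1.54 ± 0.28 SE, adjusted p = 0.0008). Bhlhe40 encodes DEC1, a repressor that competes for E-boxes, and its values were 737, 637, 749 and 977 in the WT libraries and 302, 443, 284 and 308 in the BKO libraries (log2 change -1.22 ± 0.17 SE, adjusted p = 4.6e-05). The groups did not overlap for either gene.

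The period genes fell unequally. Per3 had 531, 530.2, 515 and 459 in the WT libraries and 213, 244, 242 and 189.8 in the BKO libraries, a log2 change of -1.20 ± 0.17. Per1 had 442, 632, 546 and 519 in the WT libraries and 343, 298, 301 and 261 in the BKO libraries, a log2 change of -0.82 ± 0.14. Per2 had 277, 273, 273 and 240.5 in the WT libraries and 202, 159.5, 124 and 192 in the BKO libraries and changed by -0.67 ± 0.15 (adjusted p = 0.0078), a call lost without BKO libraries 4 and 5 (adjusted p = 0.17). For all 3 genes every BKO value lay below every WT value. Of the cryptochromes, the other arm of the repressor complex, Cry2 fell by 0.39 (log2 change -0.39 ± 0.10 SE, adjusted p = 0.012), a call also lost without BKO libraries 4 and 5 (adjusted p = 0.092), while Cry1 differed by 0.16 (adjusted p = 0.54). Nr1d1, which encodes REV-ERB alpha, had 508, 568, 588 and 668 in the WT libraries and 277, 404, 248 and 334 in the BKO libraries and fell by 0.90 on the log2 scale (adjusted p = 0.00092). Bhlhe41, Hlf and Wee1 did not pass the test in ligated limbs, with log2 changes of -0.19, -0.50 and -0.78. For Bhlhe41 the intact limbs showed -1.35, and the limbs differed by 1.16 ± 0.20 (adjusted p = 0.0027).

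Genes repressed by REV-ERB were called higher more often than lower. Arntl is itself repressed by REV-ERB and rose, but it is the targeted gene, so its rise is no separate evidence about REV-ERB. Of 7 tested, 4 rose and 1 fell, with a median of 1.32. The rises were Arntl, Npas2, Clock and Nfil3, so the count and the median are not free of the targeted gene. With the filter at a mean of at least 50, which leaves fewer genes, 2 rose and 1 fell with a median of 0.16. Npas2, whose protein can take the place of CLOCK, had 17.8, 2.71, 0.87 and 1.65 in the WT libraries and 27.0, 18.4, 42.9 and 45.2 in the BKO libraries (log2 change 2.91 ± 0.71 SE, adjusted p = 0.012). Its groups did not overlap, but the call was lost without WT library 5 (adjusted p = 0.051) and without BKO libraries 4 and 5 (adjusted p = 0.06). Clock itself had 303, 285, 330.0 and 316 in the WT libraries and 746, 735, 791 and 819 in the BKO libraries, and its change of 1.32 ± 0.08 had a small error beside its size. Nfil3, a repressor of D-box genes, had 55.9, 52.9, 61.8 and 74.9 in the WT libraries and 233, 182, 208 and 240.3 in the BKO libraries (log2 change 1.80 ± 0.15 SE, adjusted p = 6.2e-08). Rora, which encodes a receptor that competes with REV-ERB, fell by 0.49 (adjusted p = 0.0018), a call lost with the mt-Rnr2 share as a covariate (adjusted p = 0.051).

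**Figure D2:**
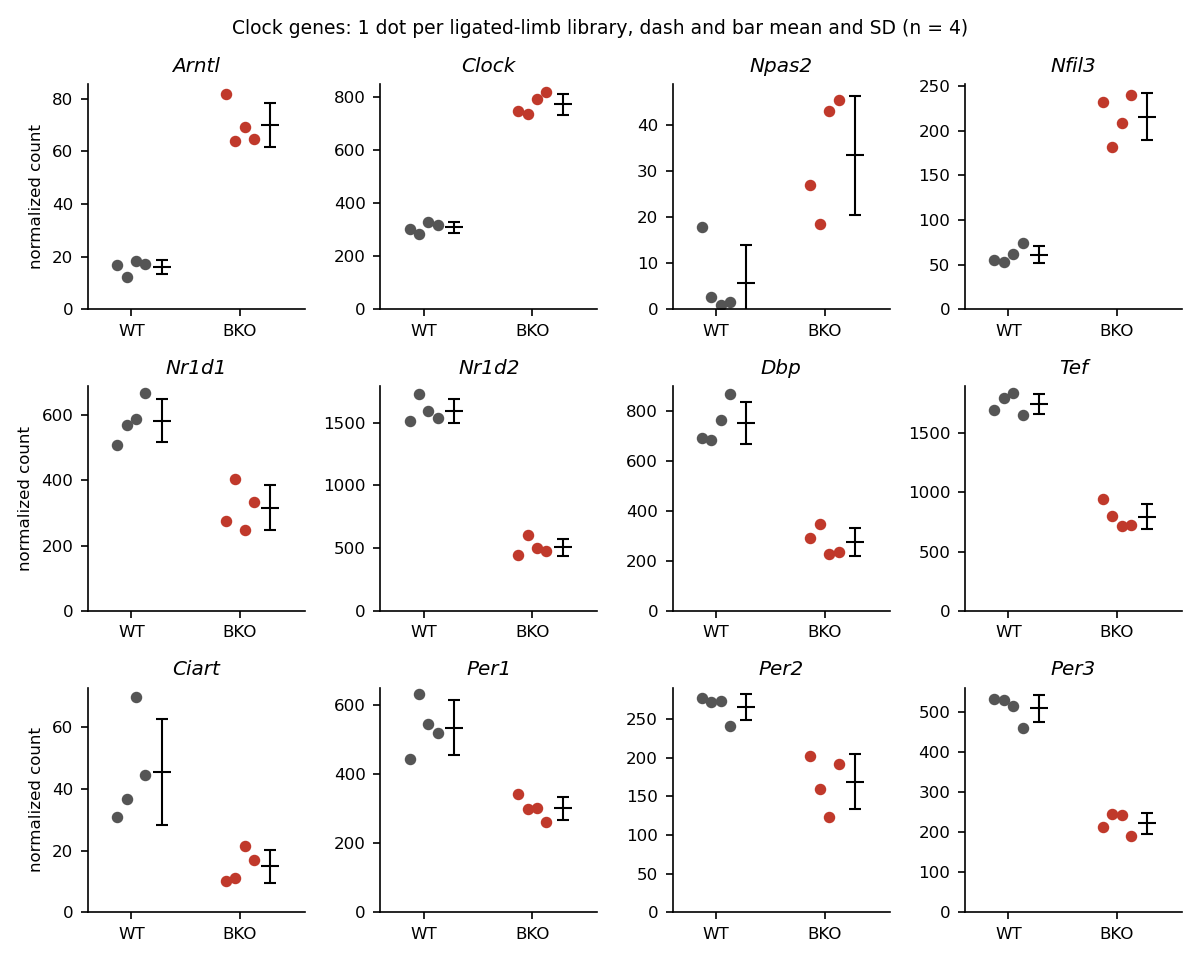
Normalized counts of 12 clock genes on linear axes from 0, with 1 dot for each of the 4 WT and 4 BKO ligated libraries and a dash and bar for mean and SD (n = 4), the WT bar of Npas2 being cut at 0. Arntl, Clock, Npas2 and Nfil3 have every BKO dot above the WT dots, and the other 8 panels have every BKO dot below them.

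The stretches of sequence before the starts of several of these genes hold the letters of the elements named above. They are shown because they let a reader see the binding sequence beside genes that fell or rose. They come from the RefSeq annotation of GRCm38.p6, run 5′ to 3′ on the gene's strand, and capitals mark CACGTG, the palindromic E-box, TTATGTAA, a D-box, or the core of a ROR element, TAGGTCA. That core is written as TGACCTA where it lies on the opposite strand. Distances are from the first base of the match to the start site. Ciart lies on the minus strand and its stretch is chr3:95882247-95882364, with matches 116, 58 and 44 bases before the start. Per1 is on the plus strand at chr11:69098763-69098808, 166 bases before. Met, the receptor of hepatocyte growth factor described further on, is on the plus strand at chr6:17463811-17463856, 126 bases before. Ppp1r3c, a glycogen gene that rose, is on the minus strand at chr19:36736683-36736728, 104 bases before. Per3 is on the minus strand at chr4:151044796-151044890, 205 and 158 bases before. Map2k6, a kinase gene that fell, is on the plus strand at chr11:110478265-110478311, 231 bases before. Nfil3 is on the minus strand at chr13:52981040-52981071, 12 bases before.
Ciart: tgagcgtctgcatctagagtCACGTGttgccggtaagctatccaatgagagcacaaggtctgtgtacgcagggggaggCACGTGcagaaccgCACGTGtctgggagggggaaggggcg
Per1: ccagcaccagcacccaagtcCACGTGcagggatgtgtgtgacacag
Met: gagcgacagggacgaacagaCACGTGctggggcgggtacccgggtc
Ppp1r3c: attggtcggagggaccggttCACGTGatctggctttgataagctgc
Per3: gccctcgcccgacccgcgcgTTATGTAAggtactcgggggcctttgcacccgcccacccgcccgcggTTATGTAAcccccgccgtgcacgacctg
Map2k6: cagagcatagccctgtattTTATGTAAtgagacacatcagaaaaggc
Nfil3: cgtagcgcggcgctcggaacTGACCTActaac
Both strands were searched in windows from 250 bases before to 50 after each start. Of all 32851 windows, 7.15% held CACGTG, 1.06% held TTATGTAA or TTACGTAA and 2.61% held TAGGTCA. Of the 11756 windows of tested genes, the shares were 9.97%, 0.70% and 1.79%. A match describes letters and shows no binding. Ciart, Per1, Met, Per3 and Map2k6 were lower in BKO and Ppp1r3c and Nfil3 higher, so windows with CACGTG occurred on both sides. Windows with TAGGTCA did as well. Glul, not shown, holds TAGGTCA 58 bases before a start and was lower in BKO (log2 change -1.85).

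One of the largest rises was that of Slc38a4, at chr15:96994820-97055956, which encodes a sodium-coupled transporter of neutral amino acids. It had 101, 99.0, 175 and 129 in the WT libraries and 564, 618, 511 and 539 in the BKO libraries, a 4.51-fold rise (log2 change 2.17 ± 0.17 SE, adjusted p = 1.7e-08). In intact limbs it changed by 0.62, and the limbs differed by 1.55 ± 0.22 (adjusted p = 0.00093). Slc16a9, a monocarboxylate transporter family member, had 19.4, 27.1, 24.4 and 25.5 in the WT libraries and 103, 85.9, 143 and 129 in the BKO libraries, a 4.57-fold rise. Relt, a receptor of the tumour necrosis factor receptor family, had 37.3, 33.9, 34.0 and 27.2 in the WT libraries and 143, 112, 100.1 and 205 in the BKO libraries and was 4-fold higher. Grip2, a scaffold protein with PDZ domains, had 14.6, 19.0, 28.7 and 34.6 in the WT libraries and 145, 88.4, 97.0 and 64.7 in the BKO libraries and was 4-fold higher. Each of these 4 genes kept its call with any 1 library left out. None had overlapping groups, but the largest rises and falls were chosen among called genes without overlap. That trait was thus fixed by the choice and is no added support, here or in the following paragraphs on the largest rises and falls. In the paragraphs on gene lists, most members named were the called ones with the smallest p. That choice favours groups without overlap, so the trait is no added support there either. Of all genes tested, 12.9% had no overlap.

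Ttll7 encodes an enzyme that adds glutamate chains to tubulin. Its values were 756, 731, 938 and 788 in the WT libraries and 2529, 2978, 2783 and 2777 in the BKO libraries, a log2 change of 1.79 ± 0.11. Sh3bp5, an exchange factor for Rab11, had 155, 129, 113 and 114 in the WT libraries and 505, 411, 547 and 322 in the BKO libraries (log2 change 1.78 ± 0.19 SE, adjusted p = 1.4e-06). Pla2g7, the secreted enzyme that inactivates platelet-activating factor, had 77.0, 84.1, 119 and 89.8 in the WT libraries and 341, 353, 376 and 299.8 in the BKO libraries (log2 change 1.89 ± 0.14 SE, adjusted p = 6.6e-09). Agt, the precursor of angiotensin, had 57.5, 52.9, 63.6 and 50.2 in the WT libraries and 188, 172, 193 and 174 in the BKO libraries, a 3.21-fold rise. Groups did not overlap for any of these 4. Plin5, a coat protein of lipid droplets, was 3.34-fold higher (adjusted p = 0.0011), and Pnpla3, a lipid droplet protein of the patatin family, 3.32-fold higher (adjusted p = 9.8e-05).

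Tcap was among the largest falls. The gene, at chr11:98383811-98384953, encodes telethonin, which caps titin at the Z-disc. It had 13920.5, 13924, 14044 and 14069 in the WT libraries and 3311, 5080.2, 3745 and 3243 in the BKO libraries, so the BKO level was 3.7-fold lower (log2 change -1.89 ± 0.10 SE, adjusted p = 1.7e-10). The smallest WT value was well above the largest BKO value. In intact limbs Tcap changed by -0.97, and the limbs differed by -0.91 ± 0.14 (adjusted p = 0.0015). Cntfr, the receptor subunit that binds ciliary neurotrophic factor, had 72.9, 127, 104 and 51.9 in the WT libraries and 23.0, 22.1, 13.3 and 7.98 in the BKO libraries (log2 change -2.39 ± 0.32 SE, adjusted p = 2.8e-05). Nnat, an imprinted gene for a small membrane protein of the endoplasmic reticulum, had 58.3, 168, 173 and 128 in the WT libraries and 30.0, 31.9, 27.6 and 8.87 in the BKO libraries (log2 change -2.40 ± 0.56 SE, adjusted p = 0.0081), a call lost without the 3 libraries with over 45% of reads on mt-Rnr2 (adjusted p = 0.059). Sorbs3 encodes vinexin, an adaptor at sites of cell adhesion. It had 275, 249.5, 244 and 238 in the WT libraries and 66.0, 79.8, 85.8 and 66.5 in the BKO libraries (log2 change -1.75 ± 0.11 SE, adjusted p = 8.3e-10).

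Amy1, an amylase gene, had 175, 165, 185 and 127 in the WT libraries and 54.0, 52.8, 39.8 and 48.8 in the BKO libraries, a 3.28-fold fall. Its change in intact limbs was -0.32 (adjusted p = 0.13), and the limbs differed by -1.40 ± 0.21 (adjusted p = 0.0014). Mr1, a class I-like molecule that presents vitamin metabolites, was 2.86-fold lower (adjusted p = 3.2e-06), and Ctxn3, a small membrane protein, 3.34-fold lower (adjusted p = 7.0e-06). Zfp385b, a zinc finger gene, was 3.51-fold lower (adjusted p = 0.0017). Groups did not overlap for these genes. Reads of amylase genes can be shared between near-identical copies, so the value of Amy1 may hold reads of others. The leptin gene Lep was 3.11-fold lower (adjusted p = 0.025), but that call was lost without WT library 5 or 6 or BKO library 5 or 6 (adjusted p = 0.057 to 0.1). The lipid-related phosphodiesterase gene Pde3b was 2.78-fold lower (adjusted p = 0.036), lost without WT library 2, 4 or 6 or BKO library 2, 5 or 6 (adjusted p = 0.051 to 0.11).

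Genes of glucose and glycogen moved in both directions. Of 39 tested, 5 rose and 7 fell, with a median of -0.16. Ppp1r3c encodes the subunit that brings protein phosphatase 1 to glycogen and favours its synthesis. It had 364, 475, 471 and 435 in the WT libraries and 1285, 1239, 1985 and 1687 in the BKO libraries (log2 change 1.81 ± 0.17 SE, adjusted p = 2.0e-07), with no overlap. Ppp1r3a, the muscle glycogen subunit of the same phosphatase, went the other way, with 7352, 7251, 7984 and 7539.7 in the WT libraries and 4347, 4036, 4408 and 5036 in the BKO libraries (log2 change -0.76 ± 0.08 SE, adjusted p = 1.0e-06). Tbc1d1 encodes a brake on the vesicles that carry the glucose transporter GLUT4. It had 651, 972, 687 and 589.6 in the WT libraries and 185, 293, 287 and 169 in the BKO libraries, a 3.13-fold fall (adjusted p = 3.5e-06). Pdp1 encodes the phosphatase that switches pyruvate dehydrogenase on. It had 932, 900.4, 1048 and 1035 in the WT libraries and 329.8, 394, 348 and 392.01 in the BKO libraries, a 2.67-fold fall (adjusted p = 3.2e-09). Each of these 4 genes had groups that did not overlap.

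Pfkm and Pkm, enzymes of glycolysis with many reads, differed by little. Both were picked among called genes, so they do not stand for the other enzymes of glycolysis. Pfkm, the muscle phosphofructokinase, had 27415, 25379, 29181 and 29589.8 in the WT libraries and 21547, 18799, 21402 and 20554 in the BKO libraries (log2 change -0.44 ± 0.07 SE, adjusted p = 0.00021). Pkm, pyruvate kinase, had 25526, 21533, 26499.9 and 27586 in the WT libraries and 38415, 30602, 36589.7 and 38291 in the BKO libraries (log2 change 0.51 ± 0.09 SE, adjusted p = 0.00058). The groups did not overlap for either. The log2 changes in intact limbs were -0.33 for Pfkm and 0.52 for Pkm, of the same sign as in ligated limbs.

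Lipid synthesis genes were called lower more often than higher. Of 23 tested, 2 rose and 7 fell, with a median of -0.38, and 4 fell without WT library 2. Dgat2, the last enzyme of triglyceride synthesis, had 517, 576, 521 and 375 in the WT libraries and 201, 188, 179 and 113 in the BKO libraries (log2 change -1.56 ± 0.21 SE, adjusted p = 3.8e-05). In intact limbs it changed by -0.37 (adjusted p = 0.2), and the limbs differed by -1.19 ± 0.29 (adjusted p = 0.018). Gpam, which starts glycerolipid synthesis, had 1629, 1357, 1661 and 1678 in the WT libraries and 1033, 1058, 945 and 1161 in the BKO libraries (log2 change -0.59 ± 0.09 SE, adjusted p = 0.00015). Fdft1, squalene synthase of the sterol pathway, had 398, 316, 393 and 372 in the WT libraries and 209, 177, 169 and 184 in the BKO libraries (log2 change -0.998 ± 0.11 SE, adjusted p = 2.0e-06). Its intact limbs changed by 0.20 (adjusted p = 0.17), and the difference between limbs was -1.20 ± 0.15 (adjusted p = 0.0002). All 3 genes had groups that did not overlap.

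Genes that PPAR receptors induce split: of 26 tested, 4 rose and 3 fell, with a median of -0.15. The number that rose was 2 without WT library 2 or WT library 5, and the number that fell was 5 without BKO library 6. Acaa2, the thiolase that ends each round of fatty acid oxidation, had 877, 743, 838 and 873 in the WT libraries and 494, 417, 568 and 549.9 in the BKO libraries (log2 change -0.72 ± 0.15 SE, adjusted p = 0.0039). Its intact limbs stood at 0.32, with a difference between limbs of -1.05 ± 0.21 (adjusted p = 0.0067). In intact limbs 17 of the same 26 genes rose. Of 44 nuclear genes of the respiratory chain and ATP synthase, 2 rose in ligated limbs and 43 rose in intact limbs, with medians of 0.05 and 0.45. The 2 were Cycs (cytochrome c) and Uqcrq, and the count was 1 without WT library 5 and was not above 0 without WT library 2 or BKO library 5.

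Amino acid genes held 4 that rose and 8 that fell of 38, with a median of -0.24. The number that fell was 4 without WT library 2 and 5 without WT library 5 or BKO library 5. Slc38a2, a transporter closely related to Slc38a4, had 597, 698, 661 and 629 in the WT libraries and 984, 973, 886 and 1000.4 in the BKO libraries (log2 change 0.57 ± 0.09 SE, adjusted p = 0.00013), also with no overlap.

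Among enzymes of detoxification more genes fell than rose. Of 17 glutathione transferases tested, 8 fell and 1 rose (the rise was lost without any 1 library other than WT library 2), with a median of -0.58 in ligated and 0.08 in intact limbs. The number that fell was 3 without WT library 2 or WT library 5 and 5 without BKO library 4 or BKO library 5, and 4 without the 3 libraries with over 45% of reads on mt-Rnr2. Gsto1, the omega class enzyme, had 163, 111, 164 and 138 in the WT libraries and 91.9, 67.5, 64.3 and 78.9 in the BKO libraries (log2 change -0.91 ± 0.15 SE, adjusted p = 0.00041). Gstm1 had 829, 740.4, 785 and 620.1 in the WT libraries and 492, 406, 411 and 502 in the BKO libraries (log2 change -0.71 ± 0.12 SE, adjusted p = 0.0003). Mgst3, a membrane-bound relative, had 712, 560.1, 743 and 623 in the WT libraries and 434, 352, 451 and 514 in the BKO libraries (log2 change -0.59 ± 0.11 SE, adjusted p = 0.0013). Each kept its call with any 1 library left out and had no overlap, but they were picked among the called members with the smallest p. Glutathione transferase genes include near-identical copies between which reads may be split.

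Of 15 aldehyde dehydrogenases, 4 fell, with a median of -0.27. The number that fell was 2 without WT library 2 or BKO library 5. Aldh1a1, which makes retinoic acid, had 685, 494, 795 and 643 in the WT libraries and 265, 310.5, 321 and 368 in the BKO libraries (log2 change -1.04 ± 0.13 SE, adjusted p = 1.1e-05). Aldh2, the mitochondrial enzyme that clears acetaldehyde, had 853, 746, 746 and 605 in the WT libraries and 421, 441, 350.3 and 324 in the BKO libraries (log2 change -0.94 ± 0.15 SE, adjusted p = 0.0002). Of 27 antioxidant and NRF2 target genes, 7 fell and 1 rose, with a median of -0.20; the number that fell was 4 without WT library 2 or BKO library 2. Prdx6, a peroxiredoxin that reduces oxidized phospholipids, had 412, 358, 420.5 and 369 in the WT libraries and 249.9, 166, 235 and 225 in the BKO libraries (log2 change -0.84 ± 0.12 SE, adjusted p = 5.2e-05), against 0.14 in intact limbs, and the limbs differed by -0.99 ± 0.16 (adjusted p = 0.002). The gene that rose was Mt1, a metallothionein that binds zinc and copper, with 81.8, 52.9, 54.8 and 70.8 in the WT libraries and 249, 157, 173 and 211 in the BKO libraries (log2 change 1.59 ± 0.19 SE, adjusted p = 7.2e-06).

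Sarcomere genes were called in both directions. Of 14 fast-fibre genes, 3 rose and 1 fell, 28.6% beside 8.84% of all genes, with a median of 0.06. Only 1 rose when the ligated libraries were fitted alone. Mylpf, the fast regulatory light chain, had 46368, 37725, 50816 and 43916 in the WT libraries and 71273, 70189, 71441 and 73264 in the BKO libraries (log2 change 0.69 ± 0.11 SE, adjusted p = 0.00015). Tnnc2, fast troponin C, had 27490.3, 22280.3, 26836 and 24636 in the WT libraries and 32458, 30781, 31757 and 32529.8 in the BKO libraries (log2 change 0.34 ± 0.08 SE, adjusted p = 0.0068), a call lost when only the ligated libraries were fitted (adjusted p = 0.059). Neither gene's groups overlapped. The heavy chains had wide spreads. Myh4 (type 2B) was 0.45 (adjusted p = 0.034), a call lost without WT library 2, 4 or 6 or BKO library 2 or 4 (adjusted p = 0.056 to 0.097) and with the sign turned to -0.15 under quantile normalization. Myh1 (type 2X) was -0.90 (adjusted p = 0.047), lost without WT library 2, 4, 5 or 6 or BKO library 2, 4 or 6 (adjusted p = 0.077 to 0.13). Its groups overlapped.

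Of 12 slow-fibre genes only Mybpc1, the slow myosin-binding protein C, was called, although the list's median was 0.66. Mybpc1 had 14421, 13977, 15369 and 15100.0 in the WT libraries and 6536, 6637, 8358 and 8027 in the BKO libraries (log2 change -1.002 ± 0.10 SE, adjusted p = 4.3e-07), a 2-fold fall with no overlap. Of 35 Z-disc and titin network genes, 3 rose and 4 fell (20%), with a median of -0.01; the number that fell was 2 without WT library 2, WT library 6 or BKO library 4. Beside Tcap, which fell, Myom3, a myomesin of the M-band, had 151, 81.4, 87.1 and 157 in the WT libraries and 409, 209, 438 and 395 in the BKO libraries (log2 change 1.603 ± 0.29 SE, adjusted p = 0.001). Xirp1, an actin-binding protein of cell ends, had 1006, 740.4, 754 and 911 in the WT libraries and 1891, 1263, 1542 and 1689 in the BKO libraries (log2 change 0.90 ± 0.17 SE, adjusted p = 0.0017). These 2 rose without overlap.

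**Figure D3:**
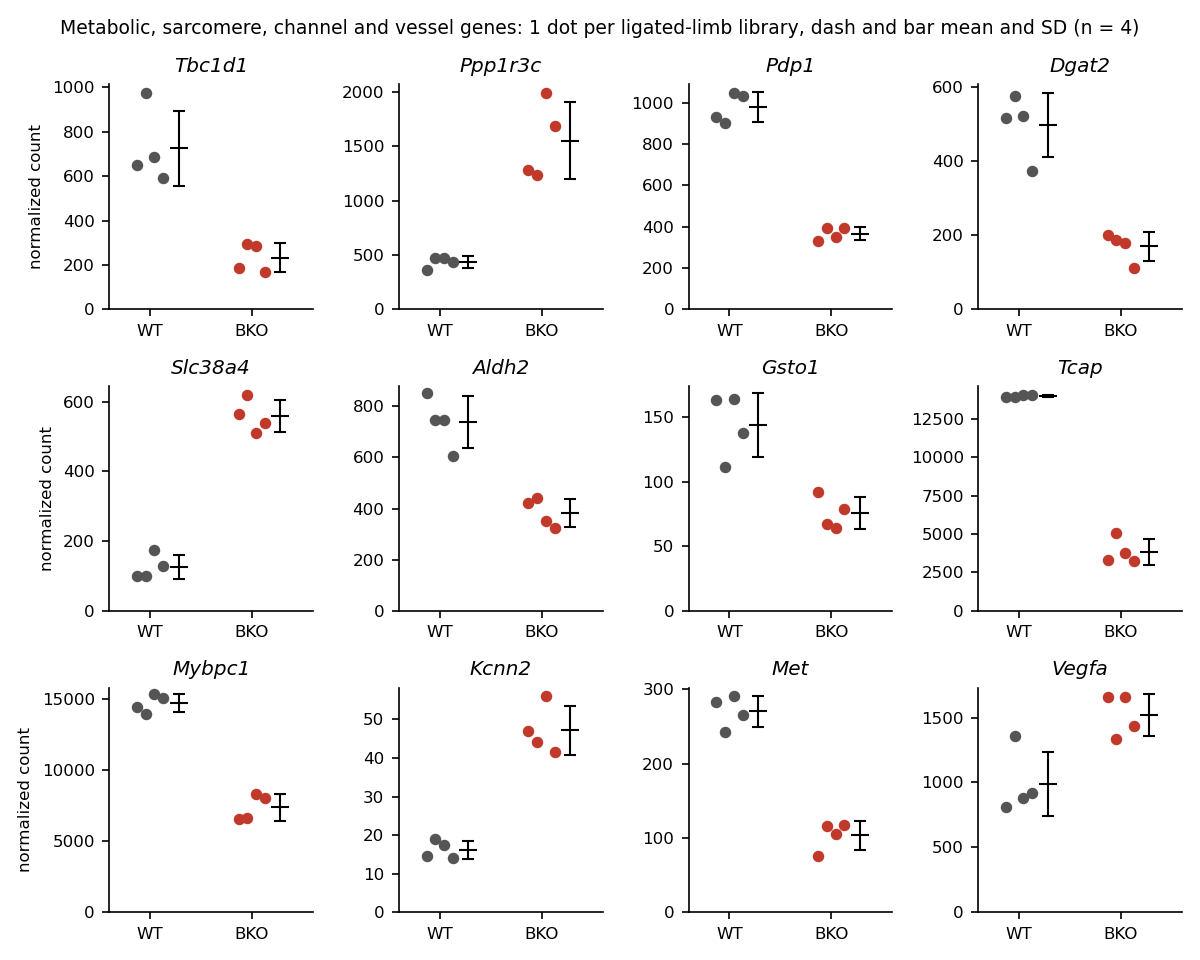
Normalized counts of 12 genes of metabolism, the sarcomere, ion channels and vessels on linear axes from 0, with 1 dot for each of the 4 WT and 4 BKO ligated libraries and the mean and SD beside them. Vegfa is the panel where the groups overlap; Ppp1r3c, Slc38a4 and Kcnn2 are higher in BKO without overlap and the remaining genes lower without overlap.

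Calcium handling genes were mostly higher where they were called. Of 35 tested, 8 rose and 1 fell (the fall was lost without WT library 5 or 6 or BKO library 2 or 5), with a median of 0.21; the number that rose was 5 without WT library 2 or BKO library 2, and 12 with the mt-Rnr2 share as a covariate. Camk2d, a calcium-dependent kinase, had 305, 287, 274 and 390.3 in the WT libraries and 525, 713, 675 and 629.7 in the BKO libraries (log2 change 1.02 ± 0.13 SE, adjusted p = 2.4e-05). Asph, whose transcripts include junctin of the calcium release complex, had 856, 789, 892 and 837 in the WT libraries and 1023, 1099, 1199 and 1183 in the BKO libraries (log2 change 0.41 ± 0.08 SE, adjusted p = 0.0014). Slc8a1, the sodium and calcium exchanger of the surface membrane, had 84.2, 74.6, 100.1 and 114 in the WT libraries and 236, 242, 301 and 288 in the BKO libraries (log2 change 1.52 ± 0.12 SE, adjusted p = 1.7e-08). All 3 had groups that did not overlap. Slc8a1 rose by 0.68 in intact limbs, less than in ligated limbs (difference 0.83 ± 0.16, adjusted p = 0.0053).

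Ion channel and pump genes moved both ways. Of 25 potassium channel genes, 5 rose and 3 fell, with a median of -0.03; the number that rose was 3 without WT library 4, WT library 5 or BKO library 2. Kcnf1, a silent subunit that modifies other channels, had 1.62, 5.42, 6.09 and 5.76 in the WT libraries and 55.0, 82.2, 29.6 and 55.0 in the BKO libraries (log2 change 3.32 ± 0.54 SE, adjusted p = 0.0003), from a WT level of only a few reads. Kcnn2, a channel opened by calcium, had 14.6, 19.0, 17.4 and 13.999 in the WT libraries and 47.0, 44.2, 56.2 and 41.7 in the BKO libraries (log2 change 1.49 ± 0.20 SE, adjusted p = 3.8e-05). Kcng4, another silent subunit, fell with 96.4, 111, 153 and 117 in the WT libraries and 65.0, 33.1, 54.1 and 43.5 in the BKO libraries (log2 change -1.29 ± 0.17 SE, adjusted p = 3.0e-05). No groups overlapped for these 3.

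Of 46 ATPase pump genes, 5 rose and 4 fell. The number that rose was 2 without WT library 5 and 3 without WT library 2, BKO library 2 or BKO library 4, and the number that fell was 2 without WT library 2, WT library 5, WT library 6, BKO library 4 or BKO library 5. Atp1b4, a muscle protein related to the beta subunits of the sodium pump, had 20.3, 14.9, 16.5 and 14.8 in the WT libraries and 60.0, 66.3, 112 and 73.6 in the BKO libraries (log2 change 2.13 ± 0.23 SE, adjusted p = 2.3e-06). Atp8a1, a flippase that moves phospholipids across the membrane, had 928, 979, 915 and 819 in the WT libraries and 325, 325, 363 and 318 in the BKO libraries (log2 change -1.45 ± 0.09 SE, adjusted p = 5.1e-10). Of 20 sodium and calcium channel genes only Cacna2d4, an auxiliary calcium channel subunit, was called, with 40.5, 25.8, 45.3 and 17.3 in the WT libraries and 9.99, 6.14, 4.09 and 0.89 in the BKO libraries (log2 change -2.57 ± 0.41 SE, adjusted p = 0.00022). Of 190 solute carrier genes, 12 rose and 14 fell (13.7% called, beside 8.84% of all genes). The number that fell was 8 without WT library 5 and 9 without WT library 2 or BKO library 5. Slc41a3, a magnesium transporter, was 2.4-fold higher (adjusted p = 1.2e-08), and Slc25a36, a mitochondrial carrier of pyrimidine nucleotides, 3.06-fold higher (adjusted p = 9.3e-09).

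Signalling genes included kinases and their brakes. Of 20 dual-specificity phosphatases, which switch off MAP kinases, 4 rose and 5 fell, and the number that fell was 2 without WT library 6 or BKO library 5 and 3 without WT library 2 or WT library 5. Dusp8 had 72.1, 89.5, 65.3 and 90.6 in the WT libraries and 232, 155, 111 and 189 in the BKO libraries (log2 change 1.07 ± 0.20 SE, adjusted p = 0.0015). Dusp7 went the other way, with 279, 262, 317 and 280.0 in the WT libraries and 144, 136, 137 and 168 in the BKO libraries (log2 change -0.96 ± 0.15 SE, adjusted p = 0.00018). Dusp26 had 47.8, 52.9, 40.9 and 34.6 in the WT libraries and 12.992, 27.0, 9.19 and 14.2 in the BKO libraries (log2 change -1.50 ± 0.23 SE, adjusted p = 0.00013), against 0.23 in intact limbs (difference -1.73 ± 0.30, adjusted p = 0.0034). Map2k6, the kinase that activates p38, had 199, 165, 243 and 196 in the WT libraries and 74.956, 81.0, 107 and 66.5 in the BKO libraries (log2 change -1.28 ± 0.15 SE, adjusted p = 3.4e-06). Groups did not overlap for these 4. Ptpn4 was 2.69-fold higher and Ptpn3, its close relative, 2.32-fold lower (adjusted p = 1.3e-05 and 1.3e-05).

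The log2 change of Rab11b, a GTPase of recycling vesicles, was 0.87 (adjusted p = 1.3e-06) and that of its partner Rab11fip3 0.81 (adjusted p = 0.00022). Of 53 genes of the RAB family, 3 were called (5.66%, beside 8.84% of all genes). Of 19 WNT ligands and receptors, 1 rose and 1 fell (10.5% called, beside 8.84% of all genes). Wnt4 rose by 1.14 (adjusted p = 0.0036, with overlapping groups) and the receptor Fzd5 fell by 0.96 (adjusted p = 0.0019). Of 30 nuclear receptors, 6 fell and 1 rose, and 3 fell without WT library 2. The one that rose was Thra, a thyroid hormone receptor, with 569, 454, 551 and 547 in the WT libraries and 940.4, 860.2, 729 and 843 in the BKO libraries (log2 change 0.67 ± 0.11 SE, adjusted p = 0.00032). The glucocorticoid-induced gene Tsc22d3 had 1484, 1326, 1408 and 1294 in the WT libraries and 546, 619.7, 772 and 754 in the BKO libraries (log2 change -1.05 ± 0.11 SE, adjusted p = 2.0e-06), while 4 of the 21 glucocorticoid targets rose and 4 fell. Of 18 p53 targets, 4 rose and 1 fell, the latter being Phlda3, a brake on AKT, with a log2 change of -0.69 ± 0.09. The number that rose was 2 without WT library 5 or BKO library 5, and 1 with the replicate block.

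Genes of muscle wasting were called on both sides. Of 35 ubiquitin ligase and autophagy genes, 6 rose and 8 fell, with a median of 0.08; the number that fell was 5 without WT library 2, WT library 5 or BKO library 5. Asb2, a ligase adaptor that targets filamins, had 1361, 1179.8, 1134 and 1091 in the WT libraries and 3149, 2318, 2624 and 2558 in the BKO libraries (log2 change 1.16 ± 0.12 SE, adjusted p = 7.8e-07). Asb15, of the same family, fell, with 533, 498, 529 and 427 in the WT libraries and 299.8, 164, 266 and 229 in the BKO libraries (log2 change -1.08 ± 0.16 SE, adjusted p = 0.00011). Fbxo32, the ligase atrogin-1, had 988, 735, 907 and 929 in the WT libraries and 1356, 1657, 1182 and 1526 in the BKO libraries (log2 change 0.68 ± 0.15 SE, adjusted p = 0.0051), a call lost without the 3 libraries with over 45% of reads on mt-Rnr2 (adjusted p = 0.065). Groups did not overlap for these 3. Klhl30 and Klhl21, adaptors of the kelch family, changed by 1.21 and -0.70 (adjusted p = 3.8e-07 and 0.00021).

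Of 22 denervation and junction genes, 5 rose and 1 fell, with a median of 0.04; the number that rose was 3 without BKO library 2. Chrnb1, the beta subunit of the muscle acetylcholine receptor, had 147, 130.2, 168 and 179 in the WT libraries and 432, 339, 365 and 458 in the BKO libraries (log2 change 1.35 ± 0.12 SE, adjusted p = 2.1e-07). Hdac4, a deacetylase that links nerve activity to gene expression, was the one that fell, with 608, 599, 559.8 and 682 in the WT libraries and 442, 389, 404 and 259.9 in the BKO libraries (log2 change -0.73 ± 0.15 SE, adjusted p = 0.0035). The groups did not overlap for either gene.

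Of 19 myogenic and regeneration genes, 4 rose, with a median of 0.51. Sdc4, a syndecan of satellite cells, had 137, 132, 131 and 118 in the WT libraries and 298, 329, 255 and 283 in the BKO libraries (log2 change 1.16 ± 0.12 SE, adjusted p = 1.6e-06), with no overlap. Myod1, the myogenic factor of activated satellite cells, had 149.9, 216, 198 and 146 in the WT libraries and 276, 269, 249 and 257 in the BKO libraries (log2 change 0.58 ± 0.16 SE, adjusted p = 0.027). Its groups did not overlap, but the call was lost without WT library 2 or 6 or BKO library 2 or 4 (adjusted p = 0.061 to 0.096) and without BKO libraries 4 and 5 (adjusted p = 0.12). Embryonic myosin Myh3 averaged 60.5 ± 43.1 (SD, n = 4) for WT against 77.1 ± 27.7 (SD, n = 4) for BKO, a log2 change of 0.60 ± 0.45 SE with an adjusted p of 0.47. Myog, which drives the late step of differentiation, was at 45.1 ± 10.4 (SD, n = 4) and 41.8 ± 15.9 (SD, n = 4), adjusted p = 0.78. The difference between genotypes was not larger than the spread for Myh3 or Myog.

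Genes of vessel growth were called about as often as all genes. Of 41 angiogenic ligands and receptors, 2 rose and 2 fell, 9.76% of the list beside 8.84% of all genes, and the median was -0.01. Vegfa, the main growth factor for vessels, had 813, 1355, 878 and 917 in the WT libraries and 1660.0, 1336, 1656 and 1437 in the BKO libraries (log2 change 0.64 ± 0.14 SE, adjusted p = 0.0036). Its groups overlapped, since WT library 4 was above the lowest BKO value, and the call was lost with the mt-Rnr2 share as a covariate (adjusted p = 0.071). Met had 283, 243, 291 and 266 in the WT libraries and 76.0, 117, 105 and 118 in the BKO libraries (log2 change -1.39 ± 0.15 SE, adjusted p = 1.8e-06), with no overlap. In intact limbs Met changed by -1.18 (adjusted p = 2.6e-06). The other calls were Efnb2, higher, lost without WT library 2, 5 or 6 or BKO library 2, 4 or 5 (adjusted p = 0.056 to 0.13), and Angptl2, lower, lost without WT library 2, 5 or 6 or BKO library 4 or 5 (adjusted p = 0.061 to 0.096). Of 22 hypoxia response genes, 3 rose and 2 fell, and 4 fell without WT library 4. Mxi1, an antagonist of MYC that HIF induces, had 308, 319, 338 and 284 in the WT libraries and 211, 169, 204 and 210.2 in the BKO libraries (log2 change -0.65 ± 0.09 SE, adjusted p = 8.0e-05).

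Endothelial genes gave no call among 18 in limma. At an unadjusted p under 0.05 there was 1, Ptprb, and edgeR and DESeq2 also called none. Pecam1, which marks endothelial cells, averaged 896 ± 125 (SD, n = 4) for WT against 999 ± 134 (SD, n = 4) for BKO. The summed level of the 18 genes was 7576 to 9939 in WT and 8624 to 11103 in BKO, which overlap. Smooth muscle and pericyte genes likewise gave no call among 12 in limma, 2 at an unadjusted p under 0.05 (Cspg4 and Mcam, both lower), 1 in edgeR and 2 in DESeq2. Their summed levels were 25330 to 28109 and 26892 to 28582. In bulk muscle fewer cells of a type and less RNA per cell cannot be told apart.

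Marker lists of adipocytes, macrophages, fibro-adipogenic progenitors and Schwann cells held lower calls in BKO and no higher ones. For Schwann cells 1 of 6 genes fell, with a median of -0.35. That call was lost without WT library 4 or 5 or BKO library 2 or 6. The Schwann cell sums were 409 to 487 in WT and 277 to 410 in BKO, which overlap. Of 12 adipocyte genes tested, 4 fell, with a median of -1.06. The 12 summed to 30508 to 34951 in WT and 10381 to 15962 in BKO, without overlap. The largest part of it was Car3, carbonic anhydrase 3, which muscle fibres also express, with means of 21294 ± 2836 (SD, n = 4) and 5957 ± 809 (SD, n = 4) and a log2 change of -3.50 in intact limbs. The sum of the other 11, taken after the values were seen, was 9756 to 13055 in WT and 5478 to 10219 in BKO, which overlap. Plin4, a lipid droplet coat, had 3256, 3676, 3909 and 3100.4 in the WT libraries and 2496, 2765, 2247 and 1823 in the BKO libraries (log2 change -0.59 ± 0.13 SE, adjusted p = 0.0041). Lipe, hormone-sensitive lipase, had 458, 608, 551 and 378 in the WT libraries and 285, 415, 267 and 165 in the BKO libraries (log2 change -0.87 ± 0.22 SE, adjusted p = 0.013), with groups that overlapped. The adipokine Adipoq, which defines fat cells, was at 461 ± 123.4 (SD, n = 4) and 229 ± 134 (SD, n = 4) and did not pass (adjusted p = 0.22). With edgeR 7 of the 12 fell. The part of fat-cell RNA in the lower lipid synthesis genes was not tested.

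Of 15 macrophage genes, 3 fell, with a median of -0.74, and the summed level was 1309 to 1645 in WT and 850 to 1216 in BKO, without overlap. Csf1r, the receptor that macrophages need for survival, had 187, 193, 178 and 152 in the WT libraries and 82.0, 108, 73.5 and 121 in the BKO libraries (log2 change -0.90 ± 0.21 SE, adjusted p = 0.0097). C1qc, a complement subunit that macrophages make, had 94.8, 88.1, 101 and 71.6 in the WT libraries and 39.0, 44.2, 38.8 and 61.2 in the BKO libraries (log2 change -0.96 ± 0.23 SE, adjusted p = 0.011). Both calls, and that of the lysozyme gene Lyz2, were lost without BKO libraries 4 and 5 (adjusted p = 0.087 for Csf1r, 0.12 for C1qc and 0.1 for Lyz2). Lyz2 was also lost without WT library 2 or 5 or BKO library 2 or 5 (adjusted p = 0.061 to 0.085). Adgre1, the F4/80 antigen, was at 40.8 ± 10.5 (SD, n = 4) and 23.7 ± 12.4 (SD, n = 4), adjusted p = 0.12. Cd68, also a macrophage gene, barely differed, at 24.1 ± 9.17 (SD, n = 4) and 21.7 ± 5.72 (SD, n = 4), with a log2 change of -0.10 (adjusted p = 0.89). Il15, a cytokine that muscle fibres also make, fell, with 54.3, 47.5, 57.5 and 51.9 in the WT libraries and 19.0, 14.7, 22.5 and 22.2 in the BKO libraries (log2 change -1.40 ± 0.29 SE, adjusted p = 0.003), a call lost without the 3 libraries with over 45% of reads on mt-Rnr2 (adjusted p = 0.053).

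Of 11 genes of fibro-adipogenic progenitors, the stromal cells of muscle, 3 fell (1 without WT library 2 or 5 or BKO library 2 or 5), and the list summed to 14729 to 16439 in WT and 9714 to 12779 in BKO. Dpt, which encodes dermatopontin of the matrix, had 365, 349, 379.6 and 337 in the WT libraries and 185, 204, 156 and 250.1 in the BKO libraries (log2 change -0.86 ± 0.15 SE, adjusted p = 0.00084). The other calls, Dcn and Gsn, were lost without WT library 2, 4 or 5 or BKO library 2 or 5 (adjusted p = 0.055 to 0.098) for Gsn and without WT library 2, 5 or 6 or BKO library 2, 4 or 5 (adjusted p = 0.05 to 0.15) for Dcn. Of 31 matrix genes, 4 fell (12.9%, beside 4.68% of all genes), with a median of -0.28. The number that fell was 2 without WT library 2, WT library 4, WT library 5, BKO library 2 or BKO library 5 and 12 without BKO library 6. Adamts5, a protease that cuts aggrecan and versican, had 409, 327, 395 and 397 in the WT libraries and 143, 141, 132 and 176 in the BKO libraries (log2 change -1.36 ± 0.12 SE, adjusted p = 1.3e-07). Col23a1, a membrane collagen, had 58.3, 78.7, 36.6 and 34.6 in the WT libraries and 21.987, 16.0, 24.5 and 14.2 in the BKO libraries (log2 change -1.35 ± 0.27 SE, adjusted p = 0.0021). Groups did not overlap for either gene. Genes of immunoglobulins, which plasma cells make, went the other way. The 5 tested summed to 135 to 249.5 in WT and 445 to 831 in BKO, without overlap, and the one called was Ighm, the heavy chain of IgM, with 113, 153, 68.8 and 83.2 in the WT libraries and 659.6, 590.2, 242 and 611 in the BKO libraries (log2 change 2.28 ± 0.29 SE, adjusted p = 1.7e-05). In intact limbs Ighm changed by 3.12. The separate list of lymphocyte and plasma cell markers was mixed, with 1 of 5 tested genes higher and 1 lower. Its summed level was 614 to 781 in WT and 690 to 1069 in BKO, which overlap. Interferon-stimulated genes gave no call among 15 in limma, 2 at an unadjusted p under 0.05 (Ifi27 and Ifit3, both lower), and none in edgeR or DESeq2.

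**Figure D4:**
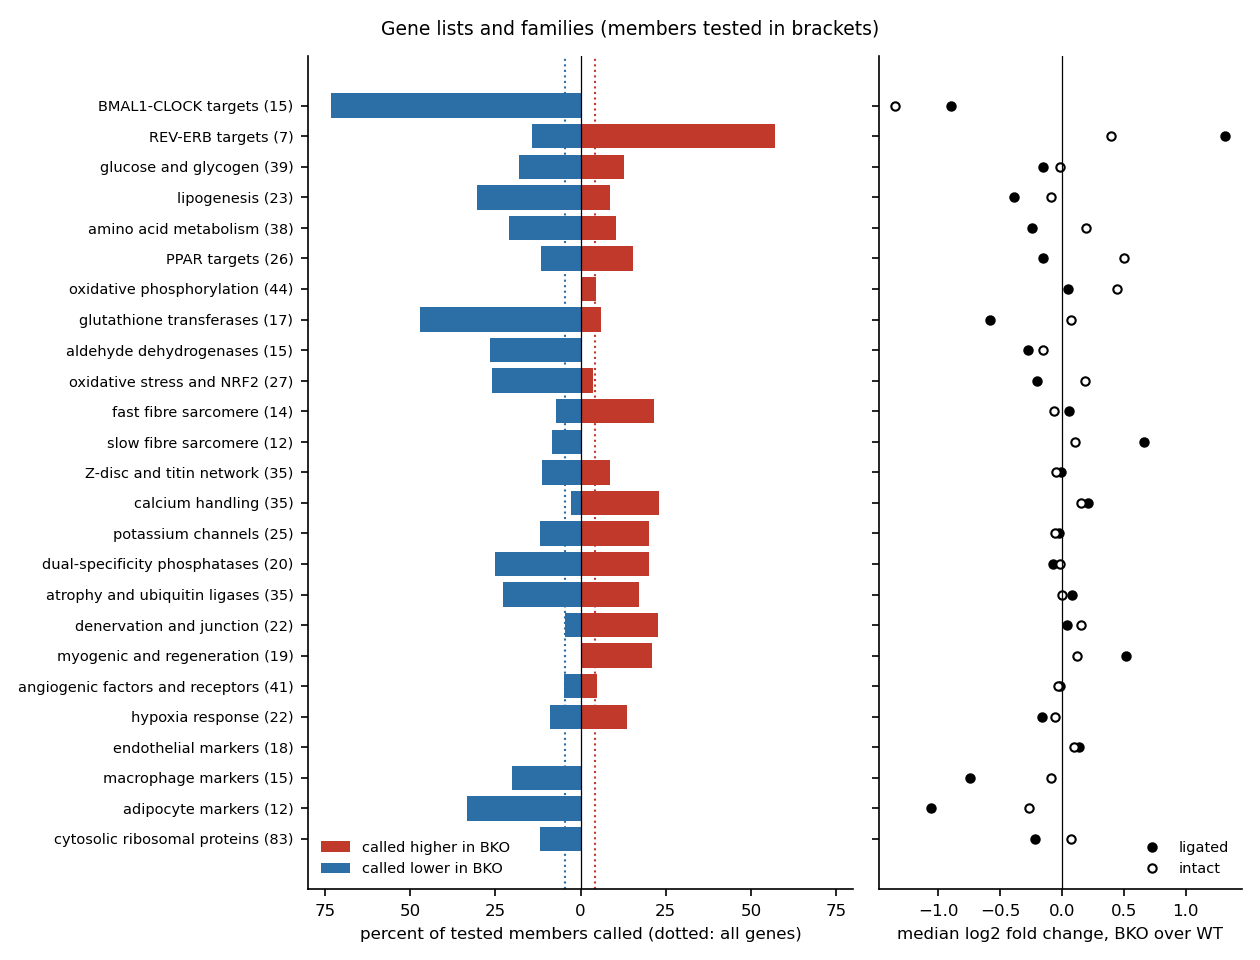
Left, the percent of each list's tested members called higher (right of 0) or lower (left of 0) in ligated BKO limbs, with dotted lines at the 4.16% and 4.68% of all genes; right, the median log2 change, BKO over WT, of each list in ligated (filled) and intact (open) limbs. BMAL1-CLOCK targets have a median of -0.90 in ligated limbs, REV-ERB targets a median of 1.32, and the respiratory chain genes a median near 0 in ligated but 0.45 in intact limbs.

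Fos, an immediate early transcription factor, had 174, 212, 83.6 and 213 in the WT libraries and 449.7, 544, 521 and 375 in the BKO libraries (log2 change 1.54 ± 0.26 SE, adjusted p = 0.00049). The groups did not overlap, and the change in intact limbs was 0.23 (difference 1.31 ± 0.35, adjusted p = 0.031). In intact limbs 9 of the 18 immediate early genes fell and 1 rose, with a list median of -0.62, and in ligated limbs 1 rose and 1 fell with a median of 0.15. In ligated limbs 4 rose in edgeR and 4 in DESeq2, 3 with the ligated libraries fitted alone or with the replicate block, and 2 without WT library 4. Hist1h1c, a linker histone gene whose RNA is also polyadenylated in resting cells, had 855, 696, 909 and 871 in the WT libraries and 369.8, 459, 402 and 409.7 in the BKO libraries (log2 change -1.02 ± 0.11 SE, adjusted p = 2.4e-06). Of 27 histone genes, 4 fell (14.8%, beside 4.68% of all genes), and 7 fell without WT library 4 or BKO library 6.

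Ribosomal protein genes gave some lower calls, whose number varied with the libraries used. Of 83 tested, 10 fell, with a median of -0.21, beside 0.07 in intact limbs, where 7 rose. The number that fell was 1 without WT library 2, 2 without WT library 5, 3 without BKO library 5, 4 without BKO library 4, 24 without WT library 4 and 34 without BKO library 6, and without BKO libraries 4 and 5 limma called none of the 83. The summed level of the family was 56708 to 67933 in WT and 53540.5 to 65917 in BKO, which overlap.

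Gene length went with direction. Among the fifth of genes with the shortest summed exons (102 to 2447 bases), 70 were higher and 158 lower, with a median log2 change of -0.09, whereas among the fifth with the longest (7815 bases or more), 154 were higher and 89 lower, with a median of 0.05. Intact limbs showed the reverse, with 309 higher and 142 lower among the shortest and 147 higher and 366 lower among the longest. Without BKO libraries 4 and 5 the ligated counts were 47 and 62 among the shortest and 89 and 54 among the longest, with medians of -0.05 and 0.03. Of 7 long RNAs that stay in the nucleus, 3 rose, with a median of 0.58. The number that rose was 1 without WT library 2, BKO library 4 or BKO library 5, and limma called none of the 7 without BKO libraries 4 and 5 or with the mt-Rnr2 share as a covariate. Neat1, the RNA scaffold of paraspeckles, had 5103, 8311, 4512 and 5393 in the WT libraries and 12730.5, 15015, 14615 and 6982 in the BKO libraries (log2 change 1.06 ± 0.20 SE, adjusted p = 0.0018), with WT library 4 above the lowest BKO value. That call was lost with the mt-Rnr2 share as a covariate (adjusted p = 0.057) and without BKO libraries 4 and 5 (adjusted p = 0.08). Of 102 long intergenic RNA genes, 12 rose (11.8%, beside 4.16% of all genes) and 2 fell (1.96%, beside 4.68%). The mt-Rnr2 share was highest in BKO libraries 5 and 4 while the other BKO values lay among those of WT, and with its logarithm as a covariate 636 genes were called.

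The same contrast in intact limbs, with 5 WT and 5 BKO libraries, called 2246 genes (18.3%), of which 1050 (8.56%) were higher and 1196 (9.75%) lower. The ligated and intact contrasts share no library, but the labels do not say which limbs came from the same mouse. The difference between the limbs was tested as an interaction, which called 737 genes (6.01%). This number was 402 to 1015 with 1 library left out, 402 and 461 of them being without WT ligated library 2 or 5, and it was 269 without BKO ligated libraries 4 and 5. Of the 1084 genes called in ligated limbs, 250 (23.1%) also passed the interaction. Of the 604 called in ligated limbs and not in intact limbs, 183 passed it, so for the rest a difference between limbs was not shown.

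Sorbs2, an adaptor at the Z-disc related to vinexin, and Aebp1, a matrix protein of stromal cells, fell less in ligated than in intact limbs. Sorbs2 had 274, 281, 264 and 303 in the WT libraries and 169, 166, 201 and 180.0 in the BKO libraries (log2 change -0.65 ± 0.11 SE, adjusted p = 0.00075), against a log2 change of -2.01 in intact limbs, a difference of 1.36 ± 0.15 (adjusted p = 8.7e-05). Aebp1 had 723, 639, 562 and 529 in the WT libraries and 236, 253, 249 and 291 in the BKO libraries (log2 change -1.24 ± 0.16 SE, adjusted p = 1.3e-05), against -2.67 in intact limbs, a difference of 1.43 ± 0.21 (adjusted p = 0.0011). Lrtm1, a membrane protein with leucine-rich repeats, showed the other pattern. It had 536, 514, 616 and 588 in the WT libraries and 351, 250.3, 232 and 318 in the BKO libraries (log2 change -0.98 ± 0.14 SE, adjusted p = 9.0e-05) and rose in intact limbs by 0.38 (adjusted p = 0.044).

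In all, 33 genes were called in both limbs in opposite directions, 31 of them with a mean of at least 50, of which 13 were higher and 18 lower in ligated BKO limbs. Map3k7cl, a gene related to the kinase TAK1, had 77.8, 61.0, 60.1 and 81.5 in the WT libraries and 131, 144, 119 and 169 in the BKO libraries (log2 change 1.00 ± 0.23 SE, adjusted p = 0.0089) and changed by -1.04 in intact limbs, a difference of 2.04 ± 0.31 (adjusted p = 0.0017). Its ligated call was lost without the 3 libraries with over 45% of reads on mt-Rnr2 (adjusted p = 0.085). Lrrc38, an auxiliary subunit of calcium-activated potassium channels, had 133, 132, 192 and 132 in the WT libraries and 288, 206, 219 and 255 in the BKO libraries (log2 change 0.72 ± 0.15 SE, adjusted p = 0.0025) and stood at -0.44 in intact limbs. Mtfp1, a protein of mitochondrial fission, had 294, 233, 292 and 271 in the WT libraries and 202, 159.5, 143 and 188 in the BKO libraries (log2 change -0.66 ± 0.14 SE, adjusted p = 0.005) and rose by 0.53 in intact limbs. The Mtfp1 call in ligated limbs was lost without BKO libraries 4 and 5 (adjusted p = 0.13). Abca1, the exporter of cholesterol, fell by 0.54 (adjusted p = 0.011) and rose in intact limbs by 0.33 (adjusted p = 0.05).

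**Figure D5:**
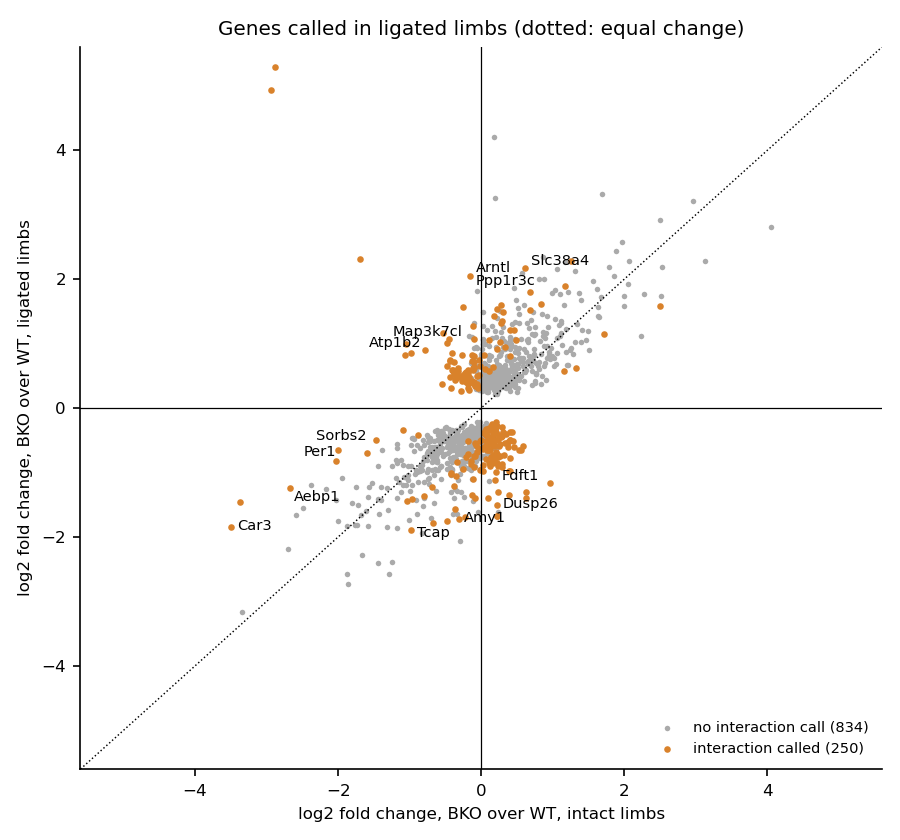
Each point is 1 of the 1084 genes called in ligated limbs, with its log2 change, BKO over WT, in intact limbs on the x axis and in ligated limbs on the y axis, and a dotted line where both are equal. The 250 coloured points also passed the interaction, and the 33 genes called in opposite directions are to the upper left and lower right of the zero lines.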

How the data were processed

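RNA-seq of total RNA from mouse tibialis anterior muscle was used, with 8 ligated and 10 intact libraries. The deposited values are normalized counts, a signal scale on which the authors divided each library's counts per gene by 1 size factor. The submitters' processing notes name Trimmomatic 0.33, STAR 2.5.2, RSEM 1.3.3, DESeq2 and mm10, without roles. For the strand setting and annotation of the counting nothing is stated in those notes, and the labels' protocols name a stranded kit, so overlapping, antisense and near-identical genes may share reads. The values are whole multiples of 1 step per library (100% of values within 0.001), which gave back reads and depth.

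Genes with a mean of at least 10 over 18 libraries were fitted in limma 3.58.1 (R 4.3.3) on log2(normalized count + 1), with 4 group means, an intensity trend and Benjamini-Hochberg adjustment over all 12262 genes. A fold change is on that scale and understates changes of low genes. All adjusted p in the text come from limma unless edgeR or DESeq2 is named, and all are two-sided. A gene was called at an adjusted p under 0.05, and rose or fell means higher or lower in BKO. Arntl was compared by an exact permutation test. The script was tested on simulated counts. Alternatives were other pseudocounts, filters, scalings and fits, edgeR 4.0.16 and DESeq2 1.42.0 on the recovered reads, each library left out, a replicate block and, chosen after seeing the data, fits without BKO libraries 4 and 5, without the 3 libraries with over 45% of reads on mt-Rnr2, and with the log share of mt-Rnr2 as a covariate.

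Members and gene lists were chosen with earlier results of these data known. Named genes were Arntl, all clock genes, the 20 largest rises and 20 largest falls without overlap and with a mean of at least 50 in ligated limbs (predicted genes and pseudogenes left out), the 10 called genes with the most reads, the 10 smallest interaction p, the 10 largest opposite changes, and up to 4 called members per list, of which the text gives a part; some results are not reported here. Myh3, Myog, Pecam1, Adipoq, Adgre1 and Cd68 were added after their values were seen. Symbols and gene coordinates are those of GENCODE M21 (GRCm38), matched by gene identifier for 12194 of the genes tested. Promoter windows came from RefSeq on GRCm38.p6. They covered 78.3% of the higher and 77.7% of the lower protein-coding calls, under 80%, so a comparison of motif shares between called and other genes is void and is not given. The same replicate numbers occur in both genotypes, and the correlation of same-numbered libraries was over 0.1 in 1 of 4 pairs, so they were not treated as pairs.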

Additional observations from a re-analysis of the deposited data

Results flagged for a closer look

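Single libraries lay far from the other 3 of their group for 13 of 260 groups of 4 values tested, and chance alone flags about 1 in 20. The measure is the gap to the nearest library as a share of the group's range and lies past the 95% limit of Dixon's test. Hlf in BKO library 4 stood at 145 beside 83.0 to 91.9 (share 0.855). Adamts5 in WT library 4 stood at 327 beside 395 to 409 (share 0.832). Gpam in WT library 4 stood at 1357 beside 1629 to 1678 (share 0.847). Mxi1 in BKO library 4 stood at 169 beside 204 to 211 (share 0.841). Npas2 in WT library 2 stood at 17.8 beside 0.87 to 2.71 (share 0.891). Lrrc38 in WT library 5 stood at 192 beside 132 to 133 (share 0.978). Bhlhe40 in BKO library 4 stood at 443 beside 284 to 308 (share 0.85). Atp8a1 in BKO library 5 stood at 363 beside 318 to 325 (share 0.83). Kcnf1 in WT library 2 stood at 1.62 beside 5.42 to 6.09 (share 0.85). Per2 in WT library 6 stood at 240.5 beside 273 to 277 (share 0.878). Myh1 in BKO library 5 stood at 99838 beside 37312 to 40301 (share 0.952). Ctxn3 in BKO library 5 stood at 44.9 beside 95.9 to 101 (share 0.916). Ighm in BKO library 5 stood at 242 beside 590.2 to 659.6 (share 0.834).

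The genotype effect differed between the limbs for 46 of the 130 named genes by the interaction in limma, which called 6.01% of all genes tested. Some named genes were picked for a small interaction p or for opposite changes in the limbs. Their number was thus partly fixed by the choice. The difference, as the log2 change in ligated limbs minus that in intact limbs, was negative where the gene was lower in ligated BKO limbs and less low, or higher, in intact ones. It was -1.73 for Col23a1, -1.73 for Dusp26, -1.50 for Il15, -1.40 for Amy1 and -1.37 for Lrtm1. The value was -1.20 for Fdft1, -1.19 for Mtfp1, -1.19 for Dgat2, -1.16 for Lipe and -1.05 for Acaa2. The difference came to -0.99 for Prdx6, -0.96 for Lyz2, -0.91 for Tcap, -0.87 for Abca1 and -0.83 for Ptpn3. In this group it was also -0.82 for Gsto1, -0.71 for Dpt, -0.69 for Aldh2, -0.65 for Plin4 and -0.63 for Eif4e3. Further values were -0.59 for Hist1h1c, -0.58 for Mybpc1, -0.57 for Adamts5, -0.46 for Pdp1 and -0.41 for Atp8a1. Last came -0.32 for Fbxo3.

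It was positive where the gene was higher in ligated BKO limbs and less high, or lower, in intact ones. It was 0.73 for Pla2g7, 0.75 for Klhl30, 0.78 for Slc25a36, 0.83 for Slc8a1 and 0.90 for Rab11fip3. The value was 0.95 for Neat1, 1.13 for Ppp1r3c, 1.16 for Lrrc38, 1.17 for Dusp8 and 1.18 for Kcnn2. The difference came to 1.31 for Fos, 1.55 for Slc38a4, 2.04 for Map3k7cl and 2.21 for Arntl. It was also positive where the log2 change was below 0 in both limbs but nearer to 0 in ligated ones, where Bhlhe41 did not pass the test. It was 1.16 for Bhlhe41, 1.21 for Per1, 1.36 for Sorbs2, 1.43 for Aebp1 and 1.66 for Car3. It was negative for a gene that rose more in intact limbs. It was -0.92 for Mt1.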

How the results depend on the processing

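The number of genes called in ligated limbs, 1084, was 616 without BKO libraries 4 and 5, 563 without the 3 libraries with over 45% of reads on mt-Rnr2 and 636 with the mt-Rnr2 share as a covariate, and ranged from 733 to 1257 with 1 library left out. The first 2 settings hold fewer samples. The number called for the difference between limbs, 737, was 1158 in DESeq2, 450 without the intensity trend, 269 without BKO libraries 4 and 5 and 365 without the 3 libraries, and ranged from 402 to 1015 with 1 library left out. The Arntl difference of 53.8 was 57.1 without BKO libraries 4 and 5, where the smallest p possible is the one found (exact permutation test, p = 0.0667), and 49.8 to 55.9 with 1 library left out. Myh4 turned to -0.15 under quantile normalization. The cause was not tested for the last, nor for DESeq2 or the trend. With the replicate number as a block 766 genes were called, of which 663 were among the 1084; 1 of 4 libraries correlated best with its own number. Of the 126 named genes called, 113 kept their call with each single library left out, 125 in edgeR, 125 in DESeq2 and 110 without BKO libraries 4 and 5. Most were picked for a small p or a large change, so they do not stand for all calls. Of all 1084 calls, 65.7% to 86.9% were kept with 1 ligated library left out, 96.9% in edgeR and 98.6% in DESeq2. The share kept was 50.8% without BKO libraries 4 and 5 and 47.7% without the 3 libraries with over 45% of reads on mt-Rnr2. Without BKO libraries 4 and 5 the number that fell was 2 of the aldehyde dehydrogenases, 4 of the amino acid genes, 4 of the ubiquitin ligases, 3 of the NRF2 targets, 1 each of the Z-disc, potassium channel, pump, matrix, hypoxia and progenitor lists, 2 each of the dual-specificity phosphatases and histones, 3 of the nuclear receptors and 7 of the solute carriers, and the number that rose was 2 each of the PPAR targets, pumps and p53 targets and 3 of the junction genes, and limma called none of the respiratory chain genes. Over all settings the median log2 change of all genes stayed between -0.03 and 0. At 14089381 reads in the smallest ligated library, a gene with a mean near 10 rests on about as many reads per library, so a small change of such a gene was not detectable.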

Other observations

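Some genes of RNA and protein handling that the report does not describe were called in ligated limbs. Snrpn, a protein of the small nuclear ribonucleoproteins, had 254, 212, 220.3 and 217 in the WT libraries and 166, 113, 124 and 153 in the BKO libraries (log2 change -0.71 ± 0.12 SE, adjusted p = 0.0004), and its groups did not overlap. Eif4e3, a cap-binding protein, fell, with 232, 225, 221 and 180.3 in the WT libraries and 146, 115, 127 and 125 in the BKO libraries (log2 change -0.74 ± 0.10 SE, adjusted p = 5.1e-05). Fbxo3, an F-box protein gene, had 874, 822, 941 and 895 in the WT libraries and 598, 603, 625 and 656 in the BKO libraries (log2 change -0.51 ± 0.07 SE, adjusted p = 4.0e-05). Neither Eif4e3 nor Fbxo3 had overlapping groups.

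Ppp1r27, a muscle subunit with ankyrin repeats, had 104, 74.6, 69.6 and 84.0 in the WT libraries and 203, 190.2, 277 and 276 in the BKO libraries (log2 change 1.49 ± 0.17 SE, adjusted p = 4.2e-06), and Ppp1r14c, an inhibitor of phosphatase 1, had 355, 285, 397 and 362 in the WT libraries and 645, 549, 551 and 722 in the BKO libraries (log2 change 0.82 ± 0.12 SE, adjusted p = 9.7e-05). Both rose without overlap. Myo10, a motor of filopodia, had 778, 751, 752 and 818 in the WT libraries and 1206, 1301, 1129.6 and 1107 in the BKO libraries (log2 change 0.61 ± 0.09 SE, adjusted p = 0.00013). Groups did not overlap for Myo10 either.

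Some classes of genes without a known protein stood away from the median of all genes. Of 111 genes annotated as TEC, transcribed loci of unproven coding status, 15 rose (13.5%, beside 4.16% of all genes) and 1 fell (0.90%, beside 4.68%). Their median log2 change was 0.65 in ligated and 0.08 in intact limbs. The 33 small nuclear RNA genes tested had medians of 0.55 in ligated and -0.96 in intact limbs. In ligated limbs 2 were higher (6.06%, beside 4.16% of all genes), and in intact limbs 13 were lower. Whether the values of these classes depend on BKO libraries 4 and 5 was not tested. The share of genes called in ligated limbs rose with level, from 3.42% in the lowest of 5 equal bins to 17.9% in the highest.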
